A study of Homo sapiens with 4 samples.

Results

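The 10 genes described here are known from blood lineages other than the B cell, and were measured in a B-cell line after knockdown of MYC. They are the T cell genes LCK, GZMA and GZMK, the myeloid genes TYROBP, FCGR1A and CSF3R, and the erythroid genes GATA1, KLF1, EPB42 and HBB. They were chosen by platform gene symbol, which gave 26 of the 15154 features on the array and 10 of the 4603 named genes. The cells were OCI-Ly10, a human lymphoma cell line of the activated B-cell class of diffuse large B-cell lymphoma. Cells were electroporated with a pool of siRNAs against MYC at 4 uM, and their RNA, labelled with Cy5, was hybridised together with Cy3-labelled RNA of control cells on 4 arrays. On 2 arrays, here called siRNA-control arrays (8 h and 24 h), the control cells had received a nonspecific siRNA against Renilla luciferase. On the buffer-control arrays (6 h and 24 h) they had been electroporated in the buffer alone. All cells, controls included, were thus electroporated, and siRNA itself was in the MYC siRNA cells alone on the buffer-control arrays. The labels name no separate cultures beyond these, so p-values measure the spread between 4 arrays, part of which may be technical. These arrays differ in time and kind of control, so their spread also holds such differences. The test (limma) further draws each row's spread towards that pooled over rows, with 6.31 prior against 3 residual degrees of freedom for the mean.

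Each blood lineage is set by transcription factors and read out by genes that few other cells use. In T cells LCK, a Src family kinase bound to CD4 and CD8, phosphorylates the antigen receptor, and granzymes are serine proteases stored in the granules of cytotoxic cells. Myeloid cells sense antibody through Fc receptors such as FCGR1A, pass signals through the ITAM adaptor TYROBP (DAP12), and respond to the growth factor G-CSF through CSF3R. In red cell precursors GATA1 and KLF1, both zinc finger factors, activate globin and membrane genes. HBB encodes beta-globin, and EPB42 a protein of the red cell membrane skeleton. GATA1 binds DNA at GATA motifs and KLF1 at CACCC boxes.

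The erythroid promoters are shown because GATA1 had the highest mean of the 10 genes, and because KLF1 and EPB42 had the most alike values, averaged by gene, of any erythroid pair. Each run is the 250 bases before the annotated start in RefSeq, 5′ to 3′ on the strand of the gene, with GATAA and CACCC on either strand in capitals.
GATA1 (GRCh38.p14, chrX:48786340-48786589, plus strand): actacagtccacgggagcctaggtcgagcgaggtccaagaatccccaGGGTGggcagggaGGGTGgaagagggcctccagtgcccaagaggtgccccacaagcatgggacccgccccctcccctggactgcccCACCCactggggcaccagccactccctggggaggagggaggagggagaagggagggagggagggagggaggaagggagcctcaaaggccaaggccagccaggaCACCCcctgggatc
KLF1 (GRCh38.p14, chr19:12887202-12887451, minus strand): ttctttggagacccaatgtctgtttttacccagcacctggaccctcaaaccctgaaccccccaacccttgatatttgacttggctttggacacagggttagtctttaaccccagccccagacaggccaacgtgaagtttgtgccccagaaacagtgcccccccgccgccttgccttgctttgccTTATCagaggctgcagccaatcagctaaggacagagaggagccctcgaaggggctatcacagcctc
EPB42 (GRCh38.p14, chr15:43221019-43221268, minus strand): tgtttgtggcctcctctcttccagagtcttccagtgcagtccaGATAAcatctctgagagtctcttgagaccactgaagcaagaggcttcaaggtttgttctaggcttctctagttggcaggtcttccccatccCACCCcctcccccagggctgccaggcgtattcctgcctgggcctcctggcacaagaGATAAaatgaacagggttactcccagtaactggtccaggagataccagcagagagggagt
The window of GATA1 held CACCC 4 times and GATAA 0 times. That of KLF1 held GATAA 1 time, with its first base 66 bases before the start, and CACCC 0 times. In the window of EPB42 GATAA stood at 207 and 60 bases before the start and CACCC at 116. RefSeq windows were found for 8 of the 10 genes, 10 windows in all. GATAA was in a window of 3 of these genes (EPB42, KLF1 and LCK) and CACCC in a window of 5 (GATA1, EPB42, LCK, CSF3R and TYROBP). The E-box CACGTG, the motif bound by MYC with MAX, was in 0 of the 8. Of all 35116 windows of this length, 20.4% held GATAA, 54.7% CACCC and 6.34% CACGTG, each on either strand. These shares are per window and the counts above per gene. LCK and CSF3R, with more than 1 window each, had more chances of a match. Only GATAA was searched as the GATA motif, so sites with another last base are neither marked nor counted. The letters of the GATA motif were settled after the windows had been read, and these matches describe sequence and do not show binding.

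The values are the authors' log ratios, taken as log2 of MYC siRNA over control, so that a value above 0 means more transcript with MYC siRNA. Neither base nor direction is stated, and the signs below would turn if the ratios ran the other way. MYC itself averaged -0.89 ± 0.39 (SD, n = 4), and its sign helped to set the direction. Between 12028 and 12784 features had a value per array, and array medians lay between -0.034 and 0.014. The 24 h buffer-control array had the widest spread over features, with an SD of 0.447 against 0.288 to 0.327 on the others. MYC siRNA carried Cy5 on all arrays, so a dye bias of a gene and a response of it cannot be told apart. A ratio gives no level, so whether these transcripts were above background in the line was not measured. In RNA of a whole culture, more cells with a transcript and more transcript per cell cannot be told apart either.

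All 10 genes had mean log2 ratios above 0, from 0.020 (HBB) to 0.48 (GATA1), with a median of 0.27. Over all 6798 rows tested, which are genes or unnamed features with a value on each array, the median was -0.0028 and 49.5% had a mean above 0. GATA1 and CSF3R passed the test (limma, adjusted p under 0.05) and the other 8 did not. This is 2 of 10 higher and 0 lower, where 5.56% of all rows passed as higher, 10.2% as lower and 15.8% in either direction. At an unadjusted p under 0.05 in limma, 8 of the 10 genes were higher and 0 lower, where 15.8% of all rows were higher and 19.6% lower. Above 0 on each of the 4 arrays were 7 of the 10 genes, against 19.4% of all rows. The 10 genes were chosen with results of these data known, so these counts describe them and test nothing about the list.

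**Figure D1:**
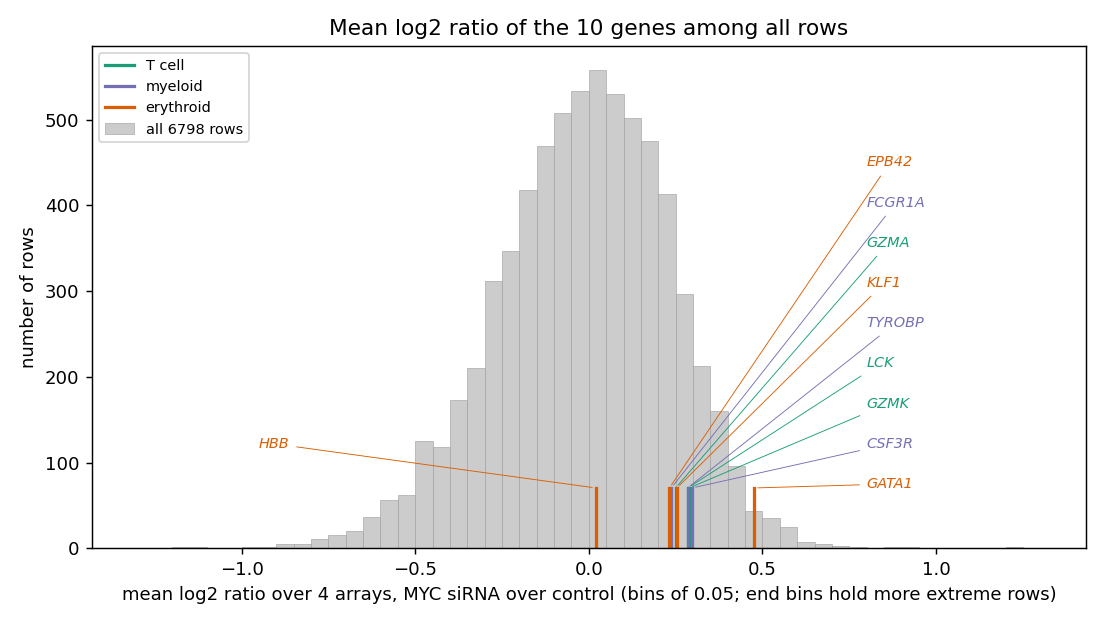
Number of rows (vertical axis) by mean log2 ratio over 4 arrays (horizontal axis), with coloured bars at the means of the 10 genes. GATA1 stands apart at 0.48, 8 genes lie close together between 0.23 and 0.30, and HBB is near 0 at 0.020.

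GATA1, the master factor of the erythroid and megakaryocyte lines, rose most. Its 1 feature gave 0.45 (8 h) and 0.39 (24 h) on the siRNA-control arrays, and 0.31 (6 h) and 0.75 (24 h) on the buffer-control arrays. All 4 values were above 0, and that of the 24 h buffer-control array was the highest. The mean was 0.48 ± 0.19 (SD, n = 4), or 139% of control (SE 0.096, limma adjusted p = 0.0204), and 98.5% of all rows had a lower mean. The call rests on all 4 arrays: with any 1 left out, the mean lay between 0.39 and 0.53 and limma's adjusted p between 0.0501 and 0.0666, in fits with fewer residual degrees of freedom. Over all alternatives its adjusted p ran from 0.0016 to 0.0666.

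KLF1, the activator of adult beta-globin, gave 0.25 (8 h) and 0.13 (24 h) on the siRNA-control arrays, and 0.017 (6 h) and 0.62 (24 h) on the buffer-control arrays. EPB42, on its 1 feature, lay near the average of the KLF1 features, with 0.30 and 0.048 with siRNA controls and -0.052 and 0.63 with buffer controls. In both genes the 6 h array was lowest and the 24 h buffer-control array highest. The 2 features of KLF1 differed on the 24 h siRNA-control array, at 0.36 and -0.092, and the second had an empty cell at 6 h. The complete feature averaged 0.31, and its 0.36 stood farther from the 0.048 of EPB42 than the gene average did. KLF1 averaged 0.25 ± 0.26 and EPB42 0.23 ± 0.30 (SD, n = 4 each), with limma adjusted p values of 0.131 and 0.186. Much of both means came from the 24 h buffer-control array, without which they were 0.13 and 0.10. Neither gene passed the test under any of the 10 alternatives run on it.

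HBB, the gene of beta-globin, stayed nearest 0. It gave -0.048 and -0.017 with siRNA controls and 0.0060 and 0.14 with buffer controls, early array first. The values lay on both sides of 0, with 2 above. Its mean was 0.020 ± 0.082 (SD, n = 4; limma adjusted p = 0.882), with a 95% interval from -0.17 to 0.21 in the fit, and -0.020 without the 24 h buffer-control array. The 4 features of HBB differed, with means of 0.22, 0.063, -0.056 and -0.15, and 8 of their 16 values were above 0. Globin genes are close relatives, and which globin transcripts a feature can bind is not given in the sources used here.

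**Figure D2:**
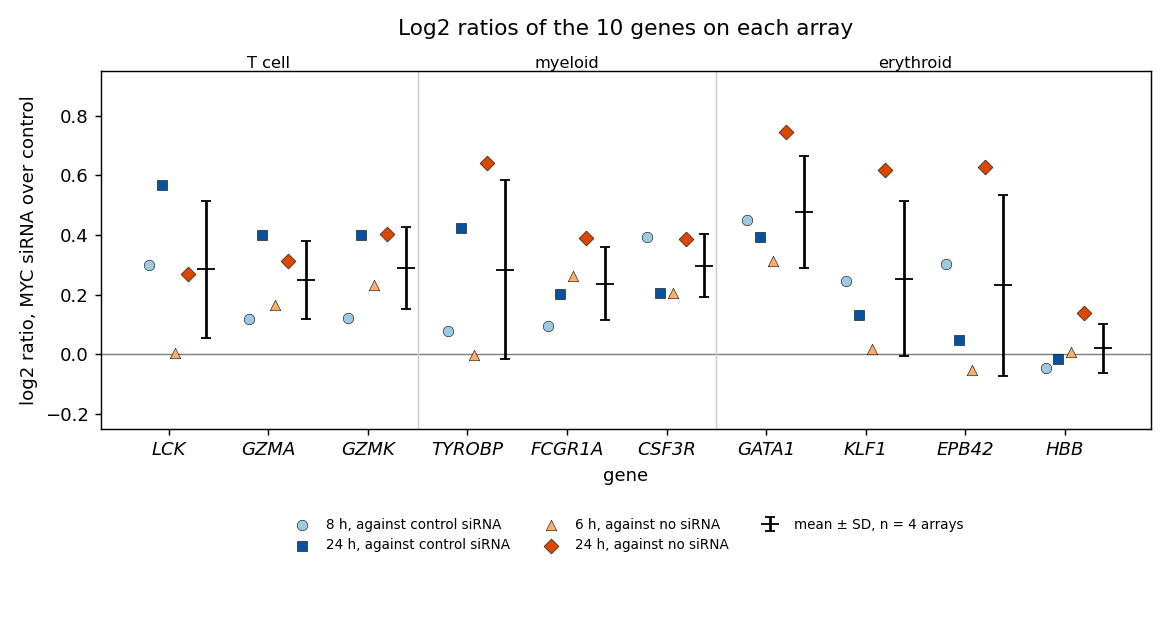
Log2 ratio (vertical axis) of each of the 10 genes on each array (symbols), with the mean and SD over 4 arrays (bars). The 24 h buffer-control array gives the highest value for GZMK, TYROBP, FCGR1A and the 4 erythroid genes, while LCK and GZMA are highest on the 24 h siRNA-control array.

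CSF3R, the receptor for G-CSF that drives neutrophil production, also rose. It gave 0.39 (8 h) and 0.21 (24 h) on the siRNA-control arrays and 0.20 (6 h) and 0.39 (24 h) on the buffer-control arrays. The 4 values lay close together, and neither the late arrays nor either control was high as a pair. The mean was 0.30 ± 0.11 (SD, n = 4), or 123% of control (SE 0.086, limma adjusted p = 0.0457). Its 3 features averaged 0.36, 0.28 and 0.25, and all 12 of their values were above 0. By single feature the arrays were less even, since 1 of them read 0.66 at 8 h and 0.023 on the 24 h buffer-control array. The call is close to the threshold. It was lost with the median over features (0.28, limma adjusted p = 0.0752), in a fit of all rows with 2 or more values (adjusted p = 0.0629) and with any 1 array left out (0.27 to 0.33, adjusted p = 0.0861 to 0.133). Its lowest adjusted p in limma under an alternative was 0.0242, with time and control as terms.

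TYROBP, the adaptor that couples activating receptors to SYK in myeloid and natural killer cells, gave 0.077 and 0.42 with siRNA controls and -0.0035 and 0.64 with buffer controls, early array first. Both late values were above both early ones. The mean was 0.28 ± 0.30 (SD, n = 4; limma adjusted p = 0.12), and 0.17 without the 24 h buffer-control array. That highest value rests on 1 feature, since the other had an empty cell there. The first feature averaged 0.37 over 4 arrays and the second 0.054 over 3. FCGR1A, the high-affinity Fc receptor for IgG (CD64), gave 0.095 and 0.20 with siRNA controls and 0.26 and 0.39 with buffer controls. All were above 0, with a mean of 0.24 ± 0.12 (SD, n = 4; limma adjusted p = 0.0901). Of its 3 features 1 was empty on all arrays, and the other 2 had the same mean, 0.24 each. FCGR1A has near-identical copies in the genome, so its features may also read these.

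LCK, which some B-cell malignancies also transcribe, was measured by 5 features. Their mean was 0.30 (8 h) and 0.57 (24 h) on the siRNA-control arrays and 0.0056 (6 h) and 0.27 (24 h) on the buffer-control arrays. Both siRNA-control values were above both buffer-control values. The mean over arrays was 0.28 ± 0.23 (SD, n = 4; limma adjusted p = 0.0865). Single features spread widely, with means of 0.46, 0.45, 0.31, 0.26 and -0.060. The first 2 passed the test over the 10161 features with a value on all arrays (limma adjusted p = 0.0316 and 0.0221), while the last read from -0.49 to 0.30. Taking the median over features in place of the mean gave 0.32 and a limma adjusted p of 0.0423, so whether LCK passed depends on how its features are combined. Over all alternatives the adjusted p of LCK ran from 0.0259 to 0.295 in limma.

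GZMA and GZMK, both tryptase-like granzymes, gave values that were close to each other. GZMA gave 0.12 and 0.40 with siRNA controls and 0.17 and 0.31 with buffer controls. GZMK gave 0.12 and 0.40 with siRNA controls and 0.23 and 0.40 with buffer controls. In both genes each 24 h value was above both early ones, and so it was in the complete feature of each. Other features differed. In GZMA 1 read 0.28 at 8 h, and 0.15 (siRNA control) and -0.097 (buffer control) at 24 h. In GZMK 1 read 0.35 at 6 h and 0.13 on the 24 h buffer-control array. Since that feature was empty on the 24 h siRNA-control array, the GZMK value there rests on 1 feature. The means were 0.25 ± 0.13 and 0.29 ± 0.14 (SD, n = 4 each), with limma adjusted p values of 0.0812 and 0.0561. Empty cells touched both, as 2 of the 3 features of GZMA and 1 of the 2 of GZMK lacked 1 array each. The features with a value on all arrays averaged 0.31 and 0.33. GZMK passed with arrays scaled to a common spread (0.29, limma adjusted p = 0.0389), and its adjusted p ran from 0.0247 to 0.181 over all alternatives.

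**Figure D3:**
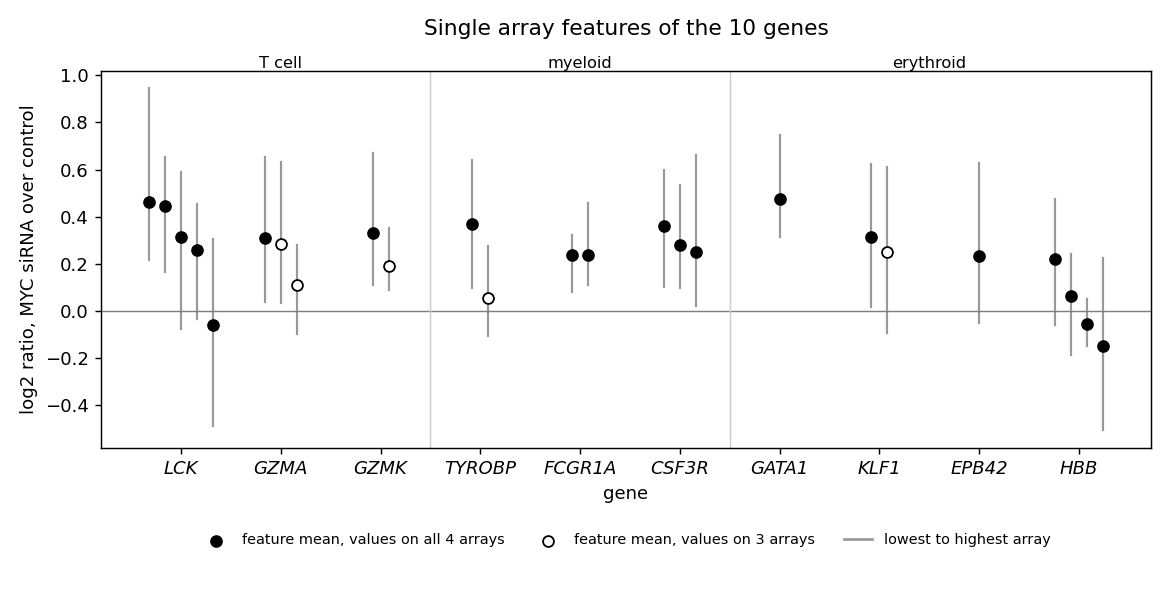
Mean log2 ratio (points, vertical axis) of each feature with a value, by gene, with lines from the lowest to the highest array. Features of CSF3R and FCGR1A lie close together, whereas those of LCK run from -0.060 to 0.46 and those of HBB from -0.15 to 0.22.

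Of the 26 features 25 had a value, 20 of them on all arrays. Of their 95 values 78 were above 0 (82.1%), against 49.6% of the 49585 values of all features. The mean was above 0 for 22 of the 25. Tested singly, 5 of the 20 complete features rose and 0 fell (limma, adjusted p under 0.05). Of all 10161 complete features 7.09% rose and 19.4% passed in either direction. The 5 that rose were 2 features of LCK and 1 each of TYROBP, CSF3R and GATA1. Empty cells made up 8.65% of the cells of these 26 features and 14.3% of those of other named genes. Over all features, those with some empty cells had a median of 0.068, and complete ones -0.0062. Among the features of the 10 genes the medians were 0.19 for the 5 with an empty cell and 0.27 for the 20 complete ones. The reason for empty cells is not given in the sources used here, and their part in the means was not tested.

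Time was compared between the 24 h arrays and the 6 h and 8 h arrays, with the kind of control as a second term. Of the 10 genes 9 were higher at 24 h, with a median difference of 0.21 in log2 ratio, against 0.00050 over all rows. None passed: 0 of 10 in limma, where 0.118% of all rows did. At an unadjusted p under 0.05 there was 1 of 10, a share close to the 10.1% of all rows. It was TYROBP, with means of 0.037 early and 0.53 late and a difference of 0.50 (SE 0.19, limma adjusted p = 0.34). LCK averaged 0.15 early and 0.42 late, GZMK 0.18 and 0.40, GZMA 0.14 and 0.36, and KLF1 0.13 and 0.37. CSF3R was at 0.30 in both. In this model 1 residual degree of freedom is left per row, so its standard errors rest mostly on the spread pooled over rows.

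**Figure D4:**
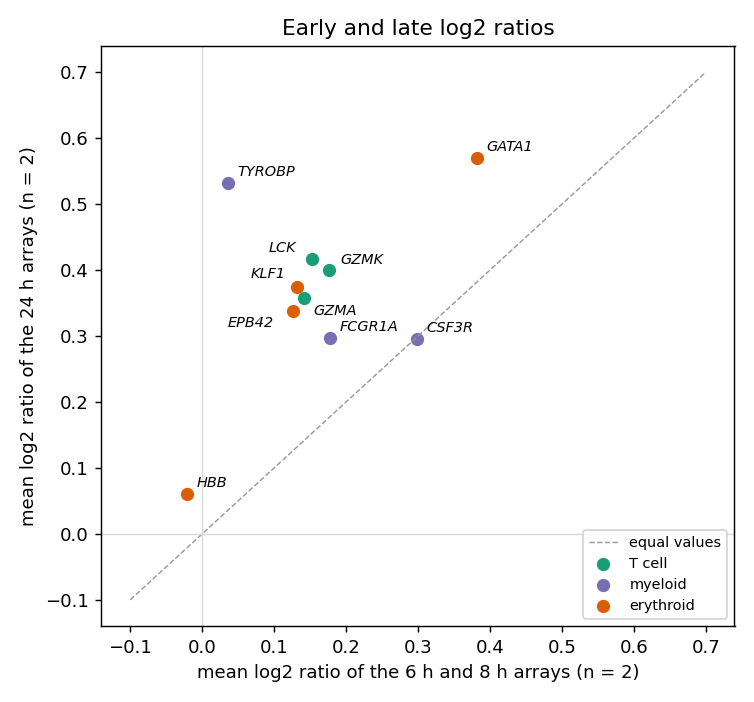
Mean log2 ratio of the 24 h arrays (vertical axis) against that of the 6 h and 8 h arrays (horizontal axis) for the 10 genes, n = 2 arrays each. Of the 10 points 9 lie above the dashed line of equal values, TYROBP farthest from it, and CSF3R lies on it at 0.30.

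The kind of control was compared in the same model. The difference of siRNA-control minus buffer-control arrays was above 0 in 3 of the 10 genes, with a median of -0.087, against 0.019 over all rows. It passed in 0 of 10 genes in limma, where 0.0883% of all rows passed, and 0 of the 10 had an unadjusted p under 0.05, against 10.1% of all rows. LCK differed most, with means of 0.43 on the siRNA-control and 0.14 on the buffer-control arrays (difference 0.30, SE 0.18, limma adjusted p = 0.66). GATA1 averaged 0.42 and 0.53 and CSF3R 0.30 and 0.30 in the same order. The array identifiers fall into separate ranges for the 2 kinds of control, so batch and control cannot be told apart.

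By array, the median of the 10 genes was 0.18 (8 h) and 0.30 (24 h) with siRNA controls, and 0.092 (6 h) and 0.40 (24 h) with buffer controls. Above 0 were 9, 9, 8 and 10 of them, in that order, against 49.4%, 51.2%, 48.0% and 46.2% of all rows. The T cell genes had their highest median, 0.40, on the 24 h siRNA-control array. The erythroid genes had theirs, 0.62, on the 24 h buffer-control array and their lowest, 0.012, at 6 h. Other erythroid markers, listed below, had a median of -0.068 on the 24 h buffer-control array, their lowest. The median of the 10 genes stayed between 0.21 and 0.33 with any 1 array left out.

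Likeness was measured as the root mean square difference over the 4 arrays between values averaged by gene, among 3954 named genes. GZMA and GZMK were each the closest of the 10 genes to the other, at 0.055, as were KLF1 and EPB42 at 0.062. Over all named genes the closest to EPB42 was ABCG2, a transporter, at 0.047, with KLF1 next. The closest to FCGR1A was the interferon-induced chemokine gene CXCL11 (0.015), to LCK the ubiquitin ligase gene MARCHF1 (0.041) and to GZMA the adaptor gene GAB3 (0.023). GATA1 was closest to the histone demethylase gene KDM3A (0.048), CSF3R to LITAF (0.042), KLF1 to DNASE1L3 (0.049), TYROBP to REXO1 (0.058), GZMK to ATOSA (0.032) and HBB to DCAF16 (0.022). With 4 values per gene such closeness is a description and says nothing of shared control.

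Lists of other markers of the same lineages had medians below the 0.27 of the 10 genes, a difference that was not tested. Of 19 measured T and natural killer cell markers 0 passed in limma, where 15.8% of all rows did, with a median of 0.11. At an unadjusted p under 0.05 in limma there were 4 of the 19, 3 of them higher. Over all rows these shares were 35.4% in either direction and 15.8% higher. The medians of these markers by array were 0.068 and 0.22 with siRNA controls and -0.076 and 0.075 with buffer controls, early array first. CD4, the coreceptor that binds LCK, averaged 0.33 ± 0.24, the granzyme gene GZMH 0.29 ± 0.22, CD3E, a chain of the T cell receptor complex, 0.23 ± 0.30, and the cytokine receptor gene IL7R -0.21 ± 0.11 (SD, n = 4 each). CD3E read 0.65 at 8 h and -0.048 on the 24 h buffer-control array, and averaged 0.089 without the 8 h array. Without the 24 h buffer-control array CD4 averaged 0.22 and GZMH 0.19.

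In the list of myeloid markers 1 of 10 rose, 0 fell and 9 did not pass, with a median of 0.17. Over all rows 5.56% rose and 10.2% fell in the same test, and the lists below stand beside the same shares. ITGAX, the integrin CD11c, averaged 0.51 ± 0.41 (SD, n = 4; limma adjusted p = 0.0407), with 0.14 and 0.18 early and 0.83 and 0.88 at 24 h. CD1D was at 0.24, the formyl peptide receptor gene FPR1 at 0.22 (0.14 without the 24 h buffer-control array) and LILRB1 at 0.20. Among 10 erythroid markers ADD2, beta-adducin of the membrane skeleton, rose by 0.51 (SD 0.19, n = 4; limma adjusted p = 0.0187), 0 fell and 9 did not pass, with a median of 0.032. By array the medians of these markers were 0.14 and 0.18 with siRNA controls and -0.012 and -0.068 with buffer controls, early array first. CA2 was at 0.19 (0.097 over features complete on all arrays), SPTB, erythroid beta-spectrin, at 0.15 and EPB41, of the same skeleton, at -0.14. The myeloid marker CD14 had no row in the fit. Of 20 markers of the B cell, the lineage of the line, CD72 (0.41 ± 0.32) and CD79A (0.41 ± 0.27) rose, 0 fell and 18 did not pass, with a median of 0.029, SPIB at 0.26 and BLNK at -0.22. Their part in the values of the 10 genes was not tested.

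Pathway partners of the 10 genes were read from 4 further lists, beside all rows, of which 5.56% passed as higher and 10.2% as lower. Of 22 measured partners of LCK in antigen receptor signalling SH2D1A, the adaptor SAP, rose (0.37 ± 0.13; limma adjusted p = 0.0276), 0 fell and 21 did not pass (median 0.043). SYK averaged 0.25, VAV1 0.18 and SH2D2A -0.23. SH2D2A read -0.68 on the 24 h siRNA-control array and averaged -0.075 without it. Among 8 Fc receptors, ITAM adaptors and related genes, the group of TYROBP and FCGR1A, 0 passed in limma (median 0.075). At an unadjusted p under 0.05 in limma 1 of the 8 was higher, against 15.8% of all rows. FCRL2 was at 0.23, HCST (DAP10) at 0.14, TREM1, which signals through TYROBP, at 0.12 and FCRL4 at 0.082. TREM1 averaged -0.024 without the 24 h siRNA-control array, so its sign rests on that array. Of 15 cytokine receptor and JAK-STAT genes SOCS3, which restrains CSF3R signalling, rose by 0.36 (SD 0.22) and KIT by 0.35 (SD 0.16), 0 fell and 13 did not pass (median 0.057; limma adjusted p = 0.0418 and 0.0351). IL3RA was at 0.25 and LEPR at -0.21, or -0.044 without the 24 h buffer-control array. Among 17 partners and relatives of GATA1 and KLF1, KLF4 rose (0.43 ± 0.15; limma adjusted p = 0.0227), 0 fell and 16 did not pass. The median of the 17 was -0.028, and 5 of them (29.4%) had a mean above 0, against 49.5% of all rows. GATA2 was at 0.25, KLF13 at 0.22 and FLI1 at -0.15. Without the 24 h buffer-control array these 3 averaged 0.15, 0.074 and -0.039. Of the 8 genes of the lists that rose, 2 (ITGAX and ADD2) passed without the 8 h array, 1 (ADD2) without the 24 h buffer-control array, and 0 without either other array. CD72 averaged 0.26 without the 24 h buffer-control array (limma adjusted p = 0.124). In a fit of all rows with 2 or more values, 4 of the 8 passed (ADD2, SH2D1A, KIT and KLF4). Over features complete on all arrays 6 passed, while KIT averaged 0.13 (limma adjusted p = 0.429) and KLF4 had no row. With the median over features 7 passed, and SOCS3 averaged 0.30 (limma adjusted p = 0.0602).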

How the data were processed

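The values were the log2 ratios of 4 two-channel arrays as the authors deposited them, 1 per feature and array. Their base, their direction and how they were normalized and background-corrected are not stated in the sources used here, nor why cells are empty. Base 2 was taken from the values, and Cy5 over Cy3 from the labels' dyes, with MYC below 0. No scanner intensities were used, so signal over background is unknown.

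Symbols came from the platform annotation, of which 10165 features had 1, 4 several and 4985 none. They were updated by Entrez ID through RefSeq (GRCh38.p14) for 10124 features. Features of 1 gene were averaged per array, which left 6798 rows with a value on all arrays. Each row's mean was tested against 0 with limma 3.58.1 (lmFit, eBayes) in R 4.3.3, and time and control kind as 2 terms of another model. P-values were adjusted over all rows (Benjamini-Hochberg), and an adjusted p under 0.05 counted as passing. The code was tested on simulated ratios. The number of arrays limits the precision.

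Named genes were the 10 genes, and of each of 8 lists those past the threshold, filled to 4 by absolute mean, with 4 defining markers and each gene's closest gene. The genes and lists were chosen with earlier results of these data known. Alternatives were left-out arrays, centring, scaling, other uses of features and empty cells, and other terms.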

Additional observations from a re-analysis of the deposited data

Results flagged for a closer look

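Among 10 genes, 18 of their features and 32 genes of the lists, 7 values stood out by a gap to the other arrays or by opposite signs. Chance alone gives such a gap in about 1 of 20 groups of values. The highest or lowest of 4 arrays lay far from the others in 3 genes, each time on the 24 h buffer-control array, the one with the widest spread. ADD2 read 0.79 there, against 0.44 for the next array. CD79A read 0.81, against 0.32 for the next. FLI1 read -0.48, against -0.059 for the next.

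HBB lay below 0 on both arrays with siRNA controls and above 0 on both with buffer controls, a difference of -0.10 (limma adjusted p = 0.952). One feature of LCK, the lowest of its 5, was above 0 with siRNA controls and below 0 with buffer controls, a difference of 0.44 that was not tested for this feature. TREM1 was below 0 on both early arrays and above 0 on both late ones, a difference of 0.57 (limma adjusted p = 0.256). LEPR moved the opposite way, with a difference of -0.66 (limma adjusted p = 0.181).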

How the results depend on the processing

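All 10 means kept their sign under the alternatives run, except HBB, which was -0.020 with the 24 h buffer-control array left out. The count of the 10 genes that passed was 2, GATA1 and CSF3R, and 0 with any 1 array left out, when between 2 and 8 had an unadjusted p under 0.05 in limma, against 26.4% to 32.1% of all rows. Over all rows the count then fell from 1073 to between 0 and 441. It was 6 with time and control as terms, which added LCK, GZMA, GZMK and TYROBP, while the share of all rows that passed went from 15.8% to 29.1%. It was 1 over rows with 2 or more values, where 9.23% of all rows passed. When features were tested singly 4 genes had a called feature and 19.4% of all features were called, and a gene with several features had more chances of one. It was 2 with centred arrays and 3 with scaled ones, and 2 over features complete on all arrays, an alternative chosen after seeing the data. The median of the 10 genes lay between 0.21 and 0.33 under all alternatives. For time and for control kind 0 of the 10 genes passed in limma under each alternative. Without 1 array these fits had 1 term and assume equal spread between arrays. The causes of these shifts were not tested. The labels carry no replicate numbers. Each kind of control has an early and a 24 h array, and the comparison of times took the kind of control as a block. With time as the only term 0 of the 10 genes passed too.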
